A study of Mus musculus with 3 samples.

Results

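Genes of the circadian clock, 10 in all, were followed in skeletal muscle RNA of mice with a point mutation in Rbm20. They are the rows of the deposited exonic parts table whose gene name is Arntl, Clock, Per1, Per2, Per3, Cry2, Nr1d1, Nr1d2, Dbp or Tef, 10 of 52041 named genes and 226 of 469293 exonic parts, and all 10 had rows of their own. There were 3 libraries, 1 each from homozygous, heterozygous and wild-type mice aged 12 weeks. The homozygous and heterozygous mice carried the missense change I538T of Rbm20, knocked in with CRISPR/Cas; its protein binds RNA in heart and skeletal muscle and regulates how titin and other sarcomere transcripts are spliced. The muscle taken, the time of day of sampling, the background strain, the founder line and the number of animals behind a library were not stated in the labels. The question was whether the clock genes of the 3 libraries stand as they would at one time of day.

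The clock is a feedback loop of transcription that runs in nearly every cell, muscle fibres included. The proteins of Clock and Arntl (also called Bmal1) pair, bind E-boxes in DNA and switch on the Per and Cry genes, whose proteins then block the pair. The same pair switches on the nuclear receptors Nr1d1 and Nr1d2, which shut down Arntl in turn, and Dbp, whose protein binds D-boxes. In mouse tissues Arntl RNA therefore peaks at about the opposite time of day to Nr1d1, Dbp and Per RNA, so samples from different times can show them apart in opposite directions. Samples taken on either side of a peak need not do so, and the peaks of Nr1d1, Dbp and the Per genes need not coincide.

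With 1 library for each genotype there was no measure of the spread between animals and no test between genotypes. Levels are inclusion reads of a gene per 1000000 inclusion reads of its library (RPM). The libraries held 215923385 (homozygous), 265358773 (heterozygous) and 239837797 (wild type) inclusion reads. Intervals in brackets are exact 95% intervals of the read counts. They take the reads as independent and cover counting error at most. A read can be counted in several parts and there were no molecular identifiers, so the intervals may be too narrow even for that. In bulk muscle, fewer cells of a type and less RNA per cell cannot be told apart. Rbm20 itself had 641 reads (2.97 RPM) in the homozygous library, 2866 (10.8 RPM) in the heterozygous one and 3110 (13.0 RPM) in that of wild type; these counts do not read the mutated base. The markers of fast fibres, such as Tnnt3 and Pvalb, summed to 184533, 141686 and 153194 RPM in homozygous, heterozygous and wild-type muscle. Slow-fibre markers summed to 89.0 RPM in homozygous, 712 RPM in heterozygous and 1908 RPM in wild-type muscle. Fat cell markers summed to 2398 RPM in homozygous, 7931 RPM in heterozygous and 3953 RPM in wild-type muscle.

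Promoter stretches are shown first, because the clock acts through short DNA elements. The letters CACGTG (the E-box, its own reverse complement), TTATGTAA (the D-box) and TAGGTCA (the element bound by Nr1d1, Nr1d2 and the Ror receptors) were searched on both strands in RefSeq windows (GRCm38.p6) of 300 bases, 250 before and 50 after each start. Of all 32851 windows, 7.15% held the E-box, 0.938% the D-box and 2.61% the receptor element. Among the 14 windows of the clock genes, which covered 9 genes, 3 held the E-box (Per1 and both starts of Tef), 1 the D-box (Per3, 2 copies) and 1 the receptor element (Arntl, after the start). The stretches below lie before the start and outside any annotated exon of the gene, with the element in capitals.
Per1 E-box, chr11:69098743-69098828, plus strand: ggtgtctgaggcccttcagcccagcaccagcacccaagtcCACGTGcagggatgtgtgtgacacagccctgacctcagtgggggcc
Tef E-box, downstream start, chr15:81811236-81811321, plus strand: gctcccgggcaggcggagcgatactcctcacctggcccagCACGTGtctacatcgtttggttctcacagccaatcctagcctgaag
Per3 D-boxes, chr4:151044776-151044910, minus strand: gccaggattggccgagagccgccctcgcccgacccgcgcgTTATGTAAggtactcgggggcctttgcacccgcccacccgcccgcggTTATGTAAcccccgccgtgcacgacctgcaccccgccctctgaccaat
The Per1 E-box began 166 bases before the start, the Tef E-box 138 bases before it, and the Per3 D-boxes 205 and 158 bases before it. The Per1 start meant here, at 69098949, is also a downstream start, since the parts of Per1 begin at 69095217 on the plus strand. A match of letters is no proof of a bound site, and 7.15% of all windows hold an E-box.

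The activators stood in different orders in the 3 libraries. Arntl (chromosome 7, 113207465 to 113314126, plus strand) had 2218 reads in the homozygous, 4648 in the heterozygous and 2990 in the wild-type library. This came to 10.3 RPM (9.85 to 10.7) in homozygous, 17.5 RPM (17.0 to 18.0) in heterozygous and 12.5 RPM (12.0 to 12.9) in wild-type muscle. The heterozygous library stood highest and the homozygous lowest, with log2 ratios of RPM plus 1 of -0.26 for homozygous over wild type and 0.46 for heterozygous over wild type. Clock (chromosome 5, 76209868 to 76304792, minus strand), the partner of Arntl, had 1941 reads in the homozygous, 3491 in the heterozygous and 3980 in the wild-type library. Its level was 8.99 RPM (8.59 to 9.40) in homozygous, 13.2 RPM (12.7 to 13.6) in heterozygous and 16.6 RPM (16.1 to 17.1) in wild-type muscle. Clock was lowest in homozygous and highest in wild-type muscle, at log2 ratios of -0.82 for homozygous and -0.31 for heterozygous over wild type.

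Among the repressors, both Per1 and Per2 were higher in the 2 mutant libraries than in wild type. Per1 (chromosome 11, 69095217 to 69109960, plus strand) had 1601 reads in the homozygous, 3431 in the heterozygous and 1097 in the wild-type library. That is 7.41 RPM (7.06 to 7.79) in homozygous, 12.9 RPM (12.5 to 13.4) in heterozygous and 4.57 RPM (4.31 to 4.85) in wild-type muscle, with log2 ratios of 0.59 for homozygous and 1.32 for heterozygous over wild type. Per1 met the minimum of 5 RPM in the homozygous and heterozygous libraries only, so it entered the counts through the groups where it was high. Per2 (chromosome 1, 91415982 to 91459324, minus strand) had 387 reads in the homozygous, 698 in the heterozygous and 25 in the wild-type library, or 1.79 RPM in homozygous, 2.63 RPM in heterozygous and 0.104 RPM in wild-type muscle. It stayed under 5 RPM in every library, and its wild-type reads lay in 3 of its 25 parts, with 15, 8 and 2 reads. The ratio of Per2 RPM was 17.2 (11.5 to 26.9) for homozygous and 25.2 (17.0 to 39.3) for heterozygous over wild type, by reads alone.

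Per3 and Cry2, the other repressors measured, were lower in the homozygous than in the wild-type library. Per3 (chromosome 4, 151003652 to 151044665, minus strand), a rhythmic Period gene, had 2081 reads in the homozygous, 3626 in the heterozygous and 2647 in the wild-type library, or 9.64 RPM in homozygous, 13.7 RPM in heterozygous and 11.0 RPM in wild-type muscle. Its homozygous over wild type log2 ratio was -0.18, and 0.02 with libraries scaled by the median of ratios. Cry2 (chromosome 2, 92403646 to 92434043, minus strand), a cryptochrome that holds the Clock and Arntl proteins in check, had 3070 reads in the homozygous, 4279 in the heterozygous and 5381 in the wild-type library. These gave 14.2 RPM (13.7 to 14.7) in homozygous, 16.1 RPM (15.6 to 16.6) in heterozygous and 22.4 RPM (21.8 to 23.0) in wild-type muscle, lowest in homozygous and highest in wild type. The log2 ratio of Cry2 was -0.62 for homozygous and -0.45 for heterozygous over wild type.

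The nuclear receptors that repress Arntl were highest in wild-type muscle. Nr1d1 (chromosome 11, 98767932 to 98775333, minus strand) had 16457 reads in the homozygous, 21645 in the heterozygous and 25509 in the wild-type library. Its level was 76.2 RPM (75.1 to 77.4) in homozygous, 81.6 RPM (80.5 to 82.7) in heterozygous and 106.4 RPM (105.1 to 107.7) in wild-type muscle, a log2 ratio of -0.48 for homozygous and -0.38 for heterozygous over wild type. Parts of Nr1d1 overlap Thra, and since the strand of counting is not stated in the labels, their reads cannot be told apart there. Nr1d2 (chromosome 14, 18204054 to 18239127, minus strand) had 2668 reads in the homozygous, 4583 in the heterozygous and 4498 in the wild-type library, or 12.4 RPM in homozygous, 17.3 RPM in heterozygous and 18.8 RPM in wild-type muscle. Its log2 ratio was -0.56 for homozygous and -0.11 for heterozygous over wild type.

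The outputs Dbp and Tef, PAR bZIP transcription factors that carry the rhythm to other genes, differed from each other: Dbp was highest in heterozygous muscle, and Tef was nearly level in RPM. Dbp (chromosome 7, 45705088 to 45710203, plus strand) had 7186 reads in the homozygous, 11646 in the heterozygous and 9088 in the wild-type library. Its level was 33.3 RPM (32.5 to 34.1) in homozygous, 43.9 RPM (43.1 to 44.7) in heterozygous and 37.9 RPM (37.1 to 38.7) in wild-type muscle. The log2 ratio of Dbp was -0.18 for homozygous over wild type, and 0.03 with the median of ratios as scale, and 0.21 for heterozygous over wild type. Tef (chromosome 15, 81802421 to 81826863, plus strand) had 13925 reads in the homozygous, 16544 in the heterozygous and 15117 in the wild-type library, or 64.5 RPM in homozygous, 62.3 RPM in heterozygous and 63.0 RPM in wild-type muscle. The 3 libraries were close to one another for Tef in RPM. With the median of ratios as scale, its log2 ratio was 0.25 for homozygous over wild type and 0.35 for homozygous over heterozygous. Parts of Dbp overlap Sphk2 and parts of Tef overlap Gm17597, as parts of Arntl overlap Gm45355 and of Cry2 D930015M05Rik.

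**Figure D1:**
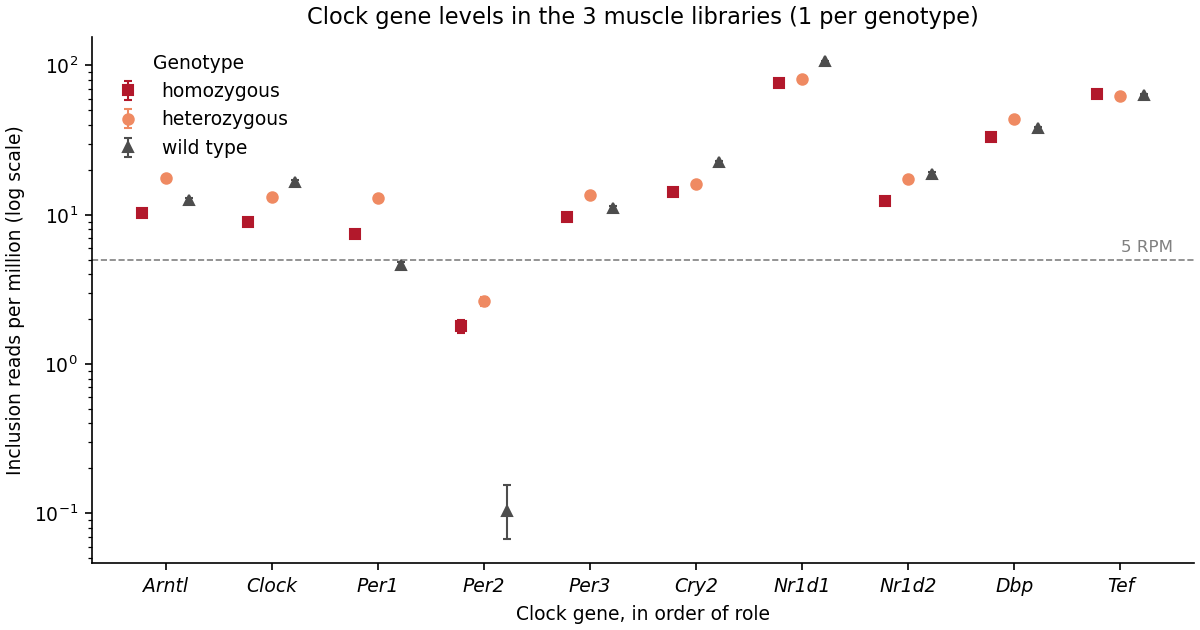
Levels of the 10 clock genes in RPM (log axis) in homozygous, heterozygous and wild-type muscle, 1 library each, with exact 95% intervals of the reads as bars. Per2 lies under the dashed line of 5 RPM in every library and at 0.104 RPM in wild type, while the 3 libraries nearly coincide for Tef.

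Past 2-fold on log2(RPM + 1), 0 of the 9 measured clock genes differed between homozygous and wild-type muscle, while 12.1% of all 9427 measured genes did. For heterozygous over wild type it was 1 of 9, Per1, beside 9.09% of all genes, and for homozygous over heterozygous 0 of 9, beside 16.0% of all genes. The median log2 ratio of the 9 genes was -0.26 for homozygous over wild type, against -0.18 over all genes, and -0.02 against 0.10 for heterozygous over wild type. For homozygous over heterozygous it was -0.45, against -0.28 over all genes. All 9 homozygous over wild type ratios lay between the 5th and 95th percentile of all genes (-1.31 to 0.69); 8 of 9 did for heterozygous over wild type (-0.82 to 1.07), the exception being Per1. Scaling by the median of ratios shifted the median of all genes to 0.04 for homozygous and 0.02 for heterozygous over wild type. The 2 comparisons with wild type share the wild-type library.

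**Figure D2:**
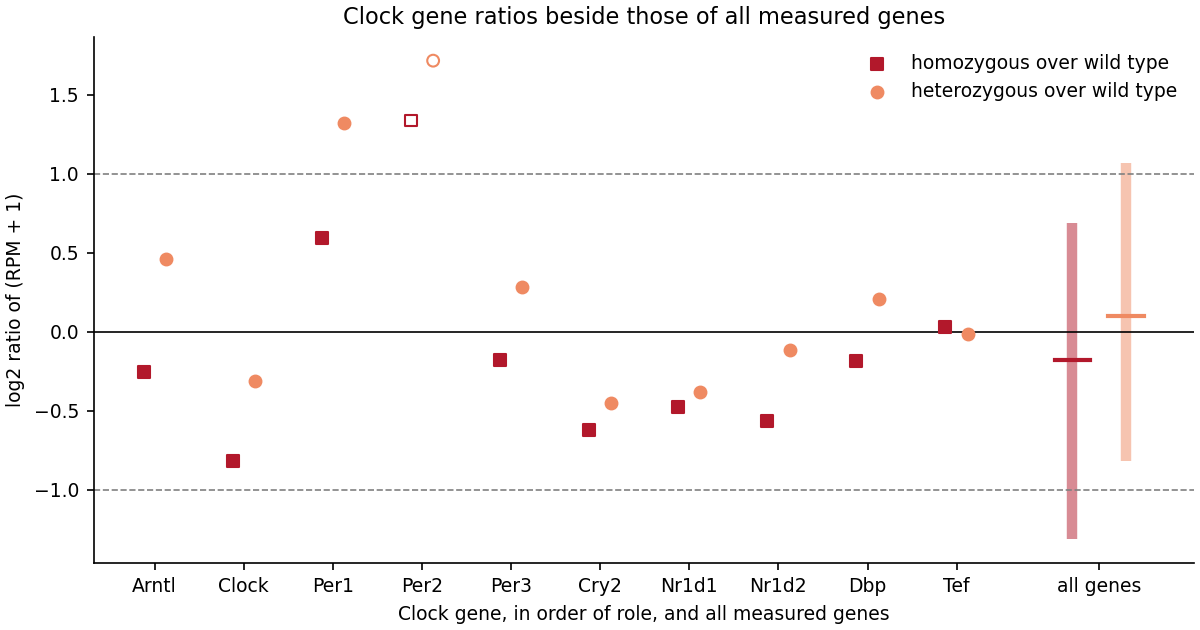
Log2 ratios of RPM plus 1 over wild type for each clock gene, homozygous (squares) and heterozygous (circles), with open symbols for Per2, which was under 5 RPM. The bars at the right span the 5th to 95th percentile of all 9427 measured genes, with a line at their median, and the dashed lines mark 2-fold.

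Arntl and the genes that peak at about the opposite time of day were then set side by side. In homozygous over wild type, Arntl (-0.26), Nr1d1 (-0.48), Dbp (-0.18) and Per3 (-0.18) were all lower, while Per1 (0.59) was higher. In heterozygous over wild type, Arntl (0.46), Dbp (0.21), Per3 (0.28) and Per1 (1.32) were all higher, while Nr1d1 (-0.38) was lower. A ratio inside a library does not depend on library totals. On reads per base, the log2 ratio of Arntl over Dbp was -3.03 (-3.09 to -2.96) in homozygous, -2.65 (-2.70 to -2.61) in heterozygous and -2.93 (-2.99 to -2.87) in wild-type muscle. For Arntl over Nr1d1 it was -4.18 in homozygous, -3.51 in heterozygous and -4.38 in wild-type muscle. Over Per3 it was 0.44 in homozygous, 0.71 in heterozygous and 0.53 in wild-type muscle. Over Per2 it was 2.16 in homozygous and 2.37 in heterozygous muscle, against 6.54 in wild-type muscle, where Per2 had 25 reads. The order of the libraries depended on the part of the gene that was read. On the last exon alone, Arntl over Dbp was -2.55 in homozygous and -3.08 in heterozygous, against -2.67 in wild-type muscle, so that the heterozygous library was then lowest. Arntl over Nr1d1 was -2.94 in homozygous and -2.96 in heterozygous, against -3.50 in wild-type muscle, on the last exon. Whether sampling time had a part in these differences was not tested.

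Per length, the order of the clock genes was much alike in the 3 libraries. Length is here the sum of all exonic parts of a gene, with parts of retained-intron transcripts included. In Arntl, 3598 of 7523 bases were its retained-intron part 6, so the order between genes depends partly on the annotation. Nr1d1 led at 24.8, 26.5 and 34.6 RPM per kilobase in homozygous, heterozygous and wild-type muscle, followed by Dbp at 11.1, 14.7 and 12.7 and by Tef at 8.20, 7.92 and 8.01 RPM per kilobase in homozygous, heterozygous and wild-type muscle. Per2 came last at 0.306, 0.449 and 0.0178 RPM per kilobase in homozygous, heterozygous and wild-type muscle. In the middle came Cry2 and Nr1d2, at 2.25 and 2.28 in homozygous, 2.55 and 3.19 in heterozygous and 3.55 and 3.47 in wild-type muscle. The counting intervals of 5 neighbouring pairs overlapped, these 2 genes in homozygous and wild-type muscle, Arntl and Per1 in homozygous and heterozygous muscle, and Clock and Per3 in wild-type muscle. Per1 stood above Clock and Per3 in homozygous and heterozygous muscle and below both in wild-type muscle.

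Reads were not spread evenly along the transcripts, and the differences between libraries depended on position. In exons 6 to 16 of Arntl (of 21 in its principal transcript), the homozygous library had 22 to 82 reads an exon, the heterozygous 115 to 277 and the wild type 38 to 105. In its last exon, by contrast, the libraries had 738, 871 and 866 reads, or 3.42, 3.28 and 3.61 RPM in homozygous, heterozygous and wild-type muscle. The higher Arntl of the heterozygous library thus lay in the exons before the last, where the ratio of RPM to wild type was 1.61, against 0.909 in the last exon. Clock was uneven in another way. Its exons 7 to 13 (of 23) had 8 to 39 reads in the homozygous and 0 to 7 in the heterozygous library, and 52 to 109 in that of wild type. Exons 19 to 22 of Clock had 0 reads in homozygous, 21 to 50 in heterozygous and 10 to 62 in wild-type muscle. The last exon of Clock, of 7011 bases, held 949, 1730 and 1462 reads in homozygous, heterozygous and wild-type muscle.

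Per1 was higher in heterozygous than in wild-type muscle along most of its length, with the last exon at 523, 862 and 391 reads in homozygous, heterozygous and wild-type muscle. Its heterozygous over wild type ratio was 1.99 (1.77 to 2.25) in the last exon and 3.29 in the rest. For homozygous over wild type, Per1 was at 1.49 in the last exon and 1.70 in the rest. In Per2 the last exon had 150 reads in homozygous and 555 in heterozygous muscle, against 0 in wild-type muscle, where a count of 0 allows up to 0.0125 RPM. Exons 7 to 15 of Per2 had 0 reads in every library.

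**Figure D3:**
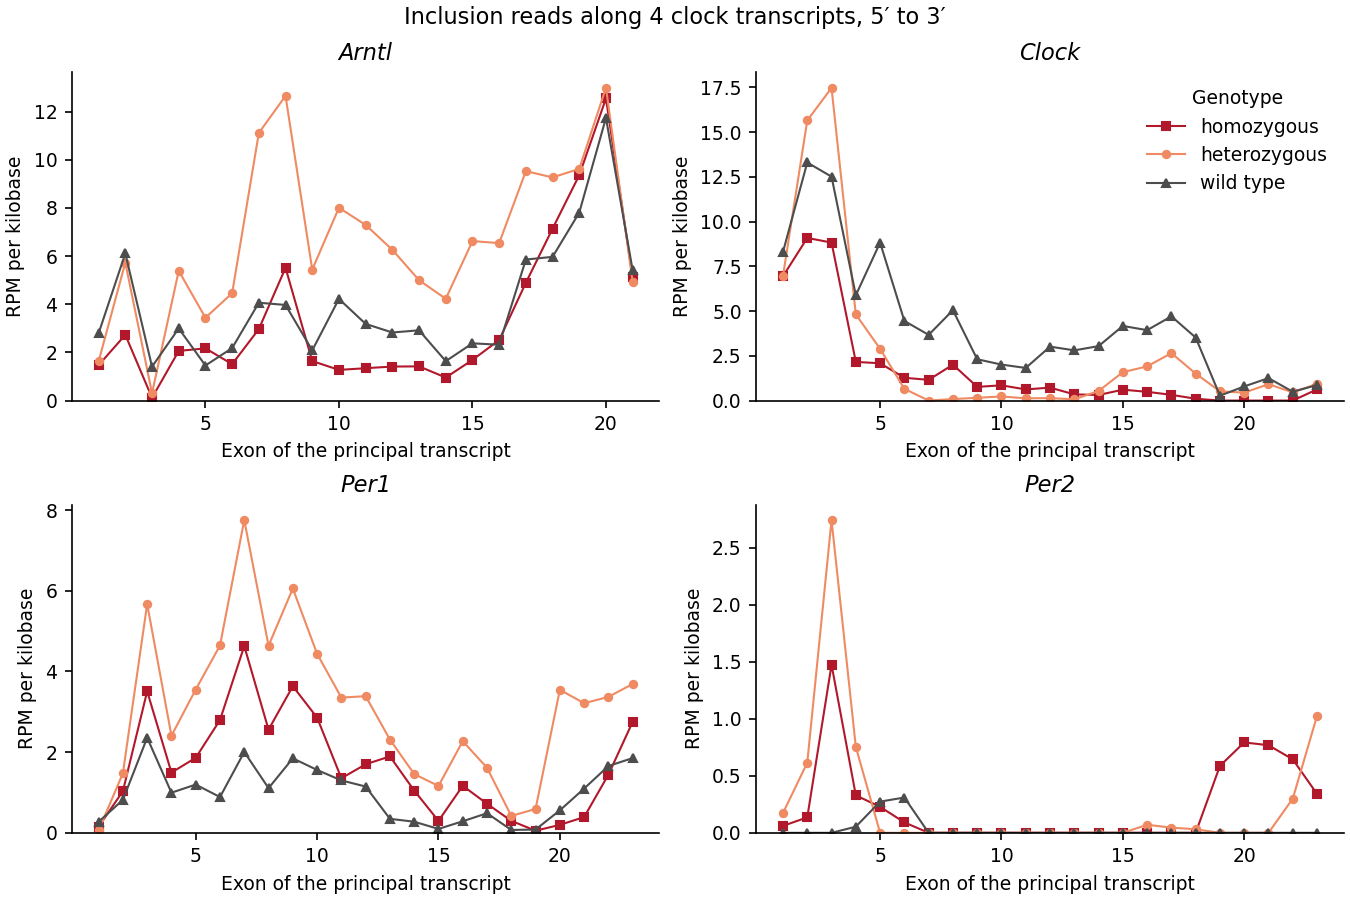
RPM per kilobase in each exon of the principal transcript of Arntl, Clock, Per1 and Per2, from the first exon at the left, in homozygous, heterozygous and wild-type muscle. The Arntl lines part between exons 6 and 16 and meet in the last exon, and the Per2 lines are at 0 from exon 7 to 15.

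The last exon and the rest of a gene gave the same direction over wild type for some clock genes only. For homozygous over wild type, the last exon ratio was under 1 in Arntl (0.947), Clock (0.721), Per3 (0.711), Cry2 (0.733), Nr1d1 (0.643), Nr1d2 (0.703), Dbp (0.873) and Tef (0.839), and over 1 in Per1 (1.49); Per2, with 150 last-exon reads in homozygous and 0 in wild-type muscle, has no ratio. The rest of the gene lay on the other side of 1 in Tef (1.25) and at 1.01 in Per3. For heterozygous over wild type, the last exon was at 1.07 in Clock, 1.02 in Cry2 and 1.04 in Tef, where the rest was at 0.632, 0.522 and 0.930. Nr1d2 was at 0.843 in the last exon and 1.30 in the rest. Nr1d1 (0.626 and 0.822) and Dbp (1.21 and 1.11) kept to one side of 1. The share of a gene's reads in its last exon was 33.3%, 18.7% and 29.0% for Arntl in homozygous, heterozygous and wild-type muscle and 45.5%, 55.9% and 39.4% for Cry2. Whether the low-input library preparation had a part in this unevenness was not tested.

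**Figure D4:**
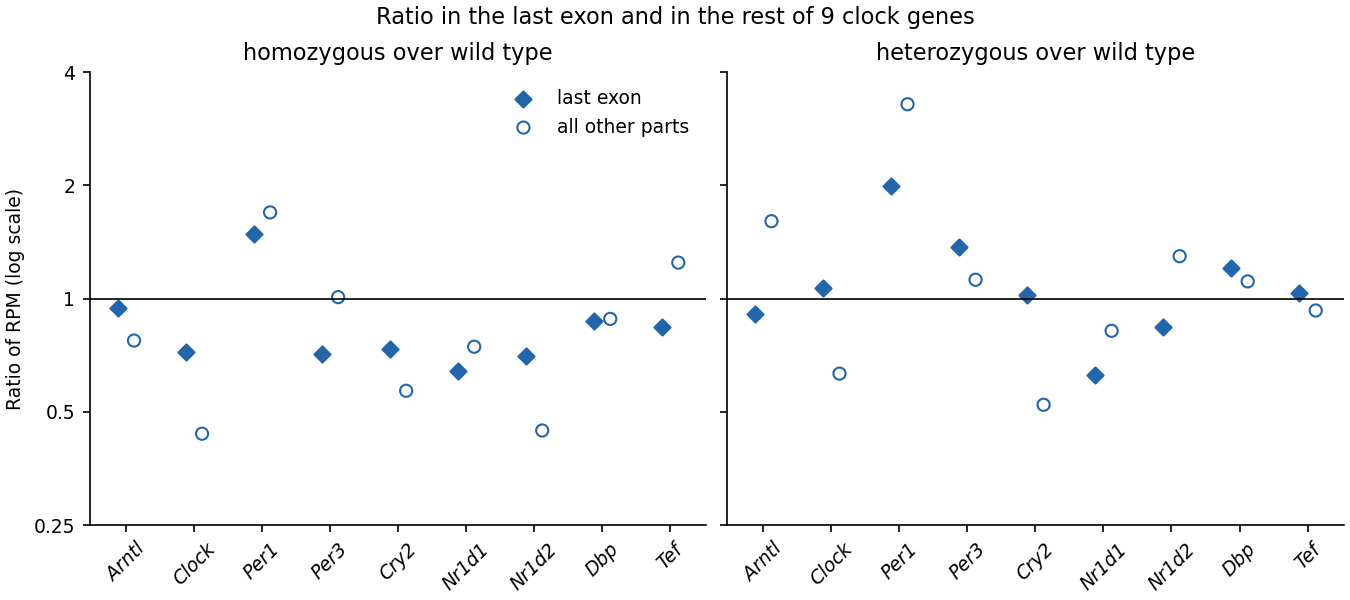
Ratio of RPM over wild type (log axis) in the last exon (filled) and in all other parts (open) of 9 clock genes, homozygous at the left and heterozygous at the right; Per2 is left out, with 0 last-exon reads in wild type. Arntl, Clock, Cry2, Nr1d2 and Tef lie on both sides of 1 in heterozygous muscle.

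Some exonic parts had reads in one library and none in another. Of the clock gene parts with at least 10 reads in one of 2 libraries, 23 of 187 (12.3%) had 0 in the other for homozygous and wild type, beside 17.4% of all parts. It was 18 of 191 (9.42%) for heterozygous and wild type, beside 17.2%, and 12 of 188 (6.38%) for homozygous and heterozygous, beside 18.2%. Of the 23, 11 had their 0 in homozygous and 12 in wild-type muscle. Of the 18, 7 had it in heterozygous and 11 in wild-type muscle, and of the 12, 7 in homozygous and 5 in heterozygous muscle. Among these parts were parts 6 and 8 of Arntl, from a retained-intron transcript, with 0 and 0 reads in homozygous and heterozygous muscle, against 124 and 36 in wild type. Part 24 of Arntl, also of a retained-intron transcript, went the other way, at 40 reads in homozygous and 83 in heterozygous muscle, against 0 in wild type. Part 12 of Cry2, also non-coding, had 0 reads in homozygous and 23 in heterozygous muscle, against 219 in wild type. Part 3 of Nr1d1, non-coding, had 0 reads in both mutant libraries, against 80 in wild type.

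Inclusion of exonic parts was measured as PSI, the percentage of transcripts that contain a part, computed from reads in it and reads that skip it. At a difference of at least 20 percentage points and 10 or more reads in both libraries, 9 of 160 clock gene parts were apart for homozygous and wild type, beside 5.57% of all parts. It was 9 of 161 for heterozygous and wild type, beside 5.78%, and 5 of 168 for homozygous and heterozygous, beside 5.52%. The 13 distinct parts lay in 7 genes; 4 were coding, 3 untranslated and 6 belonged to non-coding transcripts. Of these 23 differences, the counting interval of 19 did not contain 0.

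A short coding exon of Arntl differed between the heterozygous library and the others. It is 21 bases long (chromosome 7, 113281402 to 113281422, plus strand, GRCm38), exon 5 of ENSMUST00000211770.1 and outside the principal transcript, and is shown in capitals with 20 bases on each side of it in that transcript, from GENCODE M21.
Arntl 21-base exon: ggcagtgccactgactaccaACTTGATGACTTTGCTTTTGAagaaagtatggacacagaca
Its reads were 11 inside and 19 skipping in the homozygous, 1 and 80 in the heterozygous and 12 and 29 in the wild-type library. PSI was 33.3% (19.4 to 50.8) in homozygous and 1.07% (0.188 to 5.80) in heterozygous muscle, against 26.3% (15.6 to 40.8) in wild-type muscle. The homozygous and wild-type intervals overlapped; the heterozygous interval lay below both. Arntl part 7, in exon 3 before the coding sequence, was at 6.98% in homozygous and 6.90% in heterozygous muscle, against 27.5% in wild-type muscle, with the retained-intron parts 6 and 8 on either side of it.

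In Dbp, 2 retained-intron parts were at least 20 points higher in heterozygous than in wild-type muscle, while homozygous minus wild type came to 5.56 and 14.3 points. Part 6 (785 bases) was at 12.5% (10.4 to 15.0) in homozygous and 28.2% (24.8 to 31.8) in heterozygous muscle, against 6.95% (5.64 to 8.54) in wild-type muscle. Part 7, next to it, was at 37.3% (33.2 to 41.5) in homozygous and 45.7% (42.1 to 49.3) in heterozygous muscle, against 23.0% (20.1 to 26.2) in wild-type muscle. The intervals of the 3 libraries did not overlap in either part, and heterozygous was highest in both. Part 7 of Nr1d2, also of a retained-intron transcript, went the other way, at 21.8% (9.80 to 41.8) in homozygous and 18.2% (12.5 to 25.7) in heterozygous muscle, against 48.4% (32.7 to 64.5) in wild-type muscle. Part 2 of Cry2, untranslated, was at 0% in homozygous and 20.9% in heterozygous muscle, against 26.9% in wild-type muscle.

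In Clock, part 20, of a non-coding transcript, was at 38.5% in homozygous and 66.6% in heterozygous muscle, against 1.78% in wild-type muscle. It rested on 9 and 2 skipping reads in the mutant libraries, against 17 in wild type. Part 6 of Per3, non-coding, was at 62.3% in homozygous and 77.8% in heterozygous muscle, against 100% in wild-type muscle. The downstream start of Tef, part 11, whose promoter holds the E-box printed above, had 210, 203 and 301 reads in homozygous, heterozygous and wild-type muscle. Its PSI was 49.9% in homozygous and 56.9% in heterozygous, against 65.2% in wild-type muscle, less than 20 points apart.

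**Figure D5:**
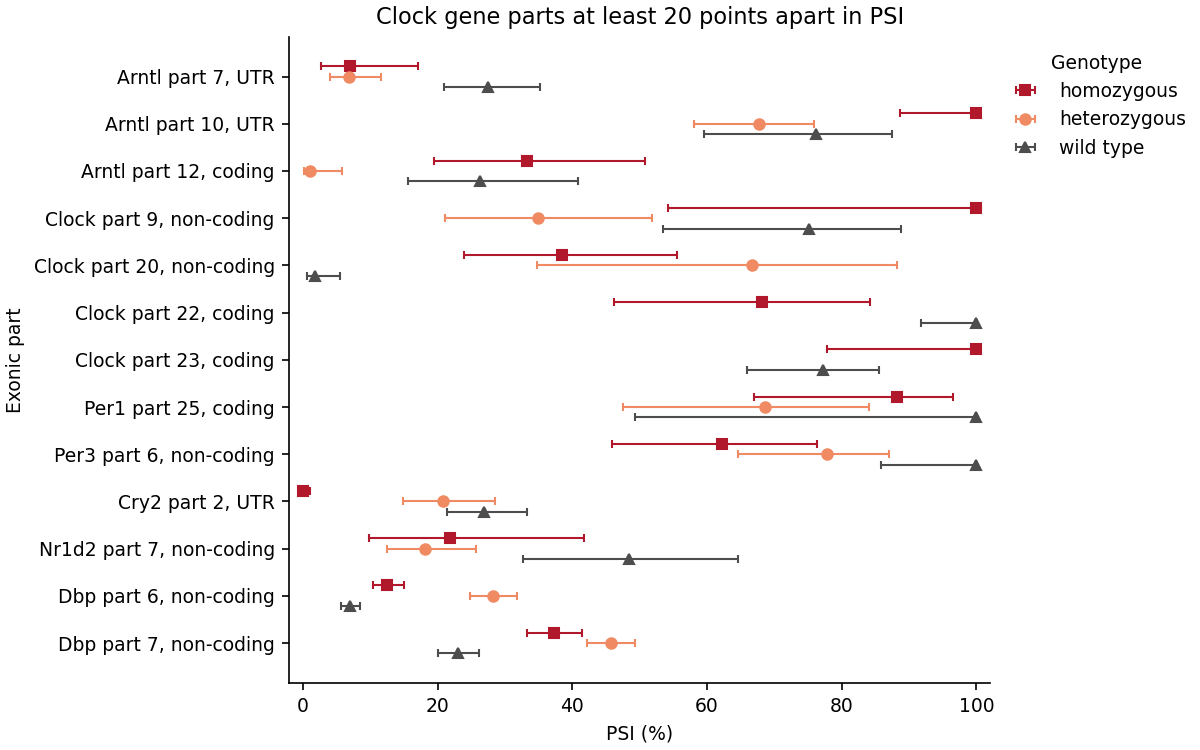
PSI of the 13 clock gene parts at least 20 points apart in at least 1 pair of libraries, homozygous, heterozygous and wild type, with Wilson 95% intervals carried to the PSI scale. A library with no reads for a part has no symbol; intervals are narrow for the Dbp parts, and wide for Clock part 9 and Per1 part 25.

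The other measured genes of the clock were not past 2-fold on log2(RPM + 1). Of 19 with rows, 14 were measured, and 0 were past it in any of the 3 comparisons. Beside this stood 12.1% of all measured genes for homozygous and 9.09% for heterozygous over wild type, and 16.0% for homozygous over heterozygous. On the plain ratio of RPM, Cry1 (2.03) and Timeless (0.449) were past 2-fold for homozygous over wild type, and Btrc (2.11) for heterozygous over wild type. The median log2 ratio of the 14 was 0.07 for homozygous and 0.14 for heterozygous over wild type. Cry1, another cryptochrome, was at 8.71 RPM in homozygous and 4.47 RPM in heterozygous, against 4.30 RPM in wild-type muscle. Nampt, an enzyme of NAD synthesis under clock control, was at 43.3 RPM in homozygous and 47.5 RPM in heterozygous, against 28.0 RPM in wild-type muscle. Timeless was at 3.65 RPM in homozygous and 5.57 RPM in heterozygous, against 8.13 RPM in wild-type muscle. Cry1 was thus highest in homozygous, Nampt in heterozygous and Timeless in wild-type muscle.

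The Ror receptors activate Arntl through the element that Nr1d1 also binds. Rora was at 40.9 RPM in homozygous and 50.9 RPM in heterozygous, against 41.7 RPM in wild-type muscle. It was highest in heterozygous muscle, as Arntl was. The repressors Bhlhe40, Bhlhe41 and Nfil3 were lowest there. Bhlhe40 was at 44.5 RPM in homozygous and 36.4 RPM in heterozygous, against 47.0 RPM in wild-type muscle. Bhlhe41 was at 20.4 RPM in homozygous and 18.4 RPM in heterozygous, against 19.7 RPM in wild-type muscle. Nfil3, which competes with Dbp for the D-box, was at 15.7 RPM in homozygous and 10.6 RPM in heterozygous, against 15.1 RPM in wild-type muscle.

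The kinases Csnk1d and Csnk1e phosphorylate PER proteins and so set their turnover. Csnk1d was at 39.2 RPM in homozygous and 38.6 RPM in heterozygous, against 42.1 RPM in wild-type muscle, and Csnk1e at 47.5 RPM in homozygous and 49.0 RPM in heterozygous, against 33.1 RPM in wild-type muscle. Btrc, a ubiquitin ligase subunit that acts on PER proteins, was at 6.53 RPM in homozygous and 12.1 RPM in heterozygous, against 5.76 RPM in wild-type muscle. Csnk1e and Btrc were highest in heterozygous muscle and Csnk1d in wild type. Hlf, a relative of Dbp, was at 5.15 RPM in homozygous and 4.45 RPM in heterozygous, against 3.60 RPM in wild-type muscle, and Noct, a rhythmic gene, at 35.5 RPM in homozygous and 29.6 RPM in heterozygous, against 38.3 RPM in wild-type muscle.

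The remaining 5 of the 19 stayed under 5 RPM in every library. Npas2, which can stand in for Clock, had 432 reads in homozygous and 13 in heterozygous, against 396 in wild-type muscle. Ciart was at 4.41 RPM in homozygous and 4.13 RPM in heterozygous, against 1.93 RPM in wild-type muscle. Arntl2, a paralog of Arntl, was at 0.366 RPM in homozygous and 0.942 RPM in heterozygous, against 0.555 RPM in wild-type muscle. Rorb was at 1.03 RPM in homozygous and 0.354 RPM in heterozygous, against 0.404 RPM in wild-type muscle, and Fbxl21 had 6 reads in homozygous muscle and 0 in heterozygous and wild-type muscle.

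Other genes that follow the time of day were counted in the same way. Of 14 muscle genes under day-night control, 0 were higher and 3 lower past 2-fold in homozygous over wild type, 3 higher and 0 lower in heterozygous over wild type, and 0 higher and 5 lower in homozygous over heterozygous. All measured genes were themselves split unevenly. Of all 9427, 193 were higher and 951 lower past 2-fold for homozygous over wild type, 561 higher and 296 lower for heterozygous over wild type, and 141 higher and 1365 lower for homozygous over heterozygous. The 3 lower of the 14 in homozygous over wild type were Pparg (4.65 RPM in homozygous, against 14.4 RPM in wild-type muscle), Lpl (307 RPM in homozygous, against 760 RPM in wild-type muscle) and Ppargc1a (7.62 RPM in homozygous, against 17.2 RPM in wild-type muscle). Pparg was under 5 RPM in homozygous muscle, so it entered these counts through the libraries where it was high. Pparg and Lpl are also expressed by fat cells, whose summed markers were lowest in homozygous muscle. Myod1, a muscle regulator that the clock drives, was at 12.0 RPM in homozygous and 18.0 RPM in heterozygous, against 6.29 RPM in wild-type muscle. The kinase Wee1, one of the 3 higher in heterozygous over wild type and of the 5 lower in homozygous over heterozygous, was at 1.63 RPM in homozygous and 5.17 RPM in heterozygous, against 1.48 RPM in wild-type muscle. It met the minimum of 5 RPM in the heterozygous library only, so it entered these counts through the library where it was high. Usp2, a deubiquitinase, was at 103 RPM in homozygous and 88.9 RPM in heterozygous, against 56.5 RPM in wild-type muscle. Pfkfb3, which raises the glycolytic activator fructose 2,6-bisphosphate, was at 89.2 RPM in homozygous and 113 RPM in heterozygous, against 169 RPM in wild-type muscle.

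Genes that follow body temperature, stress hormone, feeding or recent activity can shift with handling. Of 7 body temperature genes measured, 0 were past 2-fold in any pair; the cold-induced Cirbp was at 27.9 RPM in homozygous and 36.0 RPM in heterozygous, against 41.8 RPM in wild-type muscle. Of 13 glucocorticoid and fasting genes measured, 1 was higher past 2-fold in homozygous over wild type, the kinase Sgk1, at 159 RPM in homozygous and 126 RPM in heterozygous, against 76.8 RPM in wild-type muscle. In heterozygous over wild type 1 was higher, the metallothionein Mt2, at 29.1 RPM in heterozygous, against 13.5 RPM in wild-type muscle, and in homozygous over heterozygous 1 was lower. Of 10 immediate early genes measured, 0 were past 2-fold in any pair. Their median log2 ratio was -0.04 for homozygous and 0.62 for heterozygous over wild type, beside all-gene medians of -0.18 and 0.10. Beside the counts of these lists stood 12.1% of all measured genes past 2-fold for homozygous and 9.09% for heterozygous over wild type. For homozygous over heterozygous it was 16.0%. Fos was at 12.4 RPM in homozygous and 11.4 RPM in heterozygous, against 6.50 RPM in wild-type muscle.

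Markers of the cell types in muscle also differed between the libraries. The counts below stand beside 12.1% of all measured genes past 2-fold for homozygous and 9.09% for heterozygous over wild type. For homozygous over heterozygous the share was 16.0%. Of 8 slow-fibre markers, 0 were higher and 7 lower past 2-fold in homozygous over wild type, 0 and 5 in heterozygous over wild type, and 0 and 7 in homozygous over heterozygous; Myh7 was at 2.13 RPM in homozygous and 42.5 RPM in heterozygous, against 180 RPM in wild-type muscle. Of 10 fat cell markers, 1 was higher and 4 lower in homozygous over wild type, 2 and 0 in heterozygous over wild type, and 0 and 9 in homozygous over heterozygous; Plin1 was at 26.5 RPM in homozygous and 89.0 RPM in heterozygous, against 55.1 RPM in wild-type muscle. Of 4 Schwann cell markers measured, 4 were lower in homozygous over wild type and over heterozygous, with sums over the 6 listed of 44.0 RPM in homozygous and 148 RPM in heterozygous, against 122 RPM in wild-type muscle. Past 2-fold in homozygous over wild type were also 1 tendon marker of 7 (higher) and 4 of 8 macrophage and neutrophil markers (2 higher, 2 lower), and none of the fast-fibre, skeletal muscle, red blood cell, endothelial or fibroblast markers. Of the markers past 2-fold in that comparison, Myh7, Tnnc1, Tnni1 and Prx were under 5 RPM in homozygous muscle. Ucp1, S100a8 and S100a9 were under 5 RPM in wild-type muscle. All of them entered the counts through libraries where they were high.

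In heterozygous over wild type, 4 tendon, 3 macrophage and neutrophil and 1 endothelial marker were higher past 2-fold. Among these, Tnmd, Kera, S100a8 and S100a9 were under 5 RPM in wild-type muscle, as was Ucp1 among the fat cell markers. They entered the counts through the libraries where they were high. The tendon sum was 124 RPM in homozygous and 193 RPM in heterozygous, against 104 RPM in wild-type muscle, and the macrophage and neutrophil sum 97.3 RPM in homozygous and 168 RPM in heterozygous, against 82.0 RPM in wild-type muscle. This last sum mixed genes of opposite directions in homozygous over wild type. S100a8 was at 26.6 RPM in homozygous and 35.5 RPM in heterozygous, against 2.82 RPM in wild-type muscle. S100a9 was at 31.2 RPM in homozygous and 31.7 RPM in heterozygous, against 0.392 RPM in wild-type muscle. Csf1r was lower instead, at 8.24 RPM in homozygous, against 25.9 RPM in wild-type muscle. So was Mrc1, at 7.98 RPM in homozygous, against 23.8 RPM in wild-type muscle. The red blood cell sum was 4493 RPM in homozygous and 8791 RPM in heterozygous, against 7159 RPM in wild-type muscle. The endothelial sum was 99.5 RPM in homozygous and 153 RPM in heterozygous, against 146 RPM in wild-type muscle, and the fibroblast sum 777 RPM in homozygous and 1753 RPM in heterozygous, against 1344 RPM in wild-type muscle. The endothelial sum turned on Tie1, a receptor kinase, at 12.3 RPM in homozygous and 37.9 RPM in heterozygous, against 16.1 RPM in wild-type muscle; without it the other 6 summed to 87.2 RPM in homozygous and 115 RPM in heterozygous, against 130 RPM in wild-type muscle. Fat cell, red blood cell, fibroblast and Schwann cell sums were thus lowest in homozygous and highest in heterozygous muscle, the order also seen for Arntl, Per3 and Dbp. No further gene of the clock genes followed here had it. In the list of other clock genes Rora had this order, and so did Arntl2, which stayed under 5 RPM in every library. The median log2 ratio over all measured genes had the same order, at -0.18 for homozygous and 0.10 for heterozygous over wild type. Per3 and Dbp lost this order when scaled by the median of ratios or by TMM factors, and Arntl lost it on the last exon alone. The part of these cell types in the clock gene levels was not tested.

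By the log2 ratios of heterozygous and homozygous over wild type, the genes nearest to Arntl among 4492 with 20 RPM or more in a library were Cndp2, Cluh, Cetn3, Mfge8 and Pccb, at distances of 0.018 to 0.033. Cndp2 was at 21.7 RPM in homozygous and 36.9 RPM in heterozygous, against 26.3 RPM in wild-type muscle. Nearest to Dbp were Ndufb4c, Syn3, Dynlt1f, Fto and Rpl18, at distances of 0.0043 to 0.018. Within a distance of 0.1 there were 69 genes around Arntl and 116 around Dbp, over 3 libraries.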

How the data were processed

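RNA of skeletal muscle was sequenced from 3 libraries, 1 a genotype. The authors deposited raw counts of inclusion and exclusion reads per exonic part, the length of each part as a score, and PSI as a fraction, per the file headers. Per the submitters' processing notes, GRCm38, Bowtie 1.1.1, TopHat2 2.0.14, Trimmomatic 0.32 and cutadapt 1.1 were used, in roles not stated; for the counting program, its annotation and its use of strand, the labels gave nothing. Other ages were not analysed here.

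From the deposited counts, PSI was recomputed as inclusion reads over part length plus 131, against exclusion reads over 131; it matched the deposited fraction within 5e-07. Reads of a gene's parts were summed and given per 1000000 inclusion reads. Genes at 5 RPM or more in at least 1 library were measured, and at least 2-fold on log2(RPM + 1) was past the threshold. PSI has Wilson intervals, its differences Newcombe's, counts exact Poisson and ratios Clopper-Pearson intervals at 95%. Parts were placed with GENCODE M21. The last exon is that of the principal transcript. Settings were tested on simulated data. TMM factors came from edgeR 4.0.16 in R 4.3.3; other values from scipy 1.17.1, pandas 2.3.3 and numpy 2.4.6 in Python 3.11.15, with plots by matplotlib 3.10.9.

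The genes and lists were chosen with earlier results of these data known. Named genes are all clock genes and, from each other list, up to 6 with the largest homozygous over wild type ratio, with Mt2 and Wee1 added after their values were seen. Some genes that the rule names are left out of the text. Alternatives were scaling, fold, pseudocount, minimum level, PSI size and read minimum, parts of high PSI and the median over parts. The last exon alone, coding parts alone, leaving out overlapping parts or Tie1, and the plain ratio of RPM were added after seeing the data.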

Additional observations from a re-analysis of the deposited data

How the results depend on the processing

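With a 1.5-fold threshold, 3 clock genes were past it for homozygous over wild type (Clock, Per1, Cry2) and 2 for homozygous over heterozygous (Arntl, Per1); with 3-fold, 0 for heterozygous over wild type. With no minimum level, Per2 made the count 1 for homozygous and 2 for heterozygous over wild type. The last exon alone left 0 for heterozygous over wild type. Coding parts alone, and the median over parts, each gave 1 for homozygous over wild type (Clock), and the median over parts 2 for homozygous over heterozygous (Arntl, Nr1d2); it gave no value for Per2 against wild type, which had no part with 10 reads in both. For PSI, 10 points gave 17 parts for homozygous and 17 for heterozygous over wild type and 15 for homozygous over heterozygous. At 30 points it was 3 for homozygous and 4 for heterozygous over wild type and 3 for homozygous over heterozygous. The shares of all genes and of all parts past these other settings were not computed. Whether the counts are high or low beside them is therefore not known.

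Over parts with PSI of at least 90% in all libraries, the log2 ratio per base of Arntl over Dbp was -2.38 in homozygous, -1.98 in heterozygous and -2.35 in wild-type muscle. Over Nr1d1 it was -2.94 in homozygous, -2.28 in heterozygous and -3.20 in wild-type muscle, and over Per3 1.68 in homozygous, 1.98 in heterozygous and 1.65 in wild-type muscle. Over Per2 it was 3.47 in homozygous and 3.04 in heterozygous muscle, against 6.30 in wild-type muscle. For Per2 this setting rested on exon 4 alone, with 11 reads in homozygous, 31 in heterozygous and 2 in wild-type muscle. On the last exon alone it was, over Dbp, -2.55 in homozygous, -3.08 in heterozygous and -2.67 in wild-type muscle, and over Nr1d1 -2.94 in homozygous, -2.96 in heterozygous and -3.50 in wild-type muscle. Over Per3 it was then 1.72 in homozygous, 0.71 in heterozygous and 1.31 in wild-type muscle, and over Per2 3.91 in homozygous and 2.26 in heterozygous muscle, with no value in wild-type muscle, where Per2 had 0 last-exon reads. The cause was not tested.

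Of 30 log2 ratios of clock genes, 17 kept their sign under every alternative that gave a value and 13 changed it under at least 1. Under both other scalings Per3 and Dbp changed sign for homozygous over wild type, and Cry2 and Nr1d1 for homozygous over heterozygous. No paired analysis was possible because each genotype has 1 library. Counts were low for Per2, with 25 wild-type reads, and for exons 7 to 13 of Clock, with 0 to 7 reads in heterozygous muscle. With 1 library a genotype there is no spread between animals.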
